A study of Homo sapiens with 6 samples.

Results

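The epidermal growth factor receptor family was examined here as 10 genes: the receptor genes EGFR, ERBB2 and ERBB3 and the ligand genes AREG, EREG, HBEGF, TGFA, BTC, EPGN and NRG1. They were chosen by gene symbol as receptors of the family and their ligands, and all 10 were among the 38167 genes of the count table. The cells were Cal27, an established human line derived from a tongue squamous carcinoma, grown as spheroids by the liquid overlay technique. The soft group grew in 3 mg/mL and the stiff group in 12 mg/mL of Matrigel, a gel made from extracted basement membrane proteins, and both were collected on day 14. Each group had 3 libraries of polyadenylated RNA that the labels call biological replicates; nothing says whether they came from separate cultures, so the p-values rest on a spread among libraries that may be technical. The line is a single tumour line. More Matrigel means a stiffer gel, more matrix protein and more of whatever else the gel holds, any growth factors included. Those effects cannot be told apart. In a bulk spheroid sample, fewer cells that express a gene and less RNA per cell cannot be told apart either.

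ERBB receptors are membrane tyrosine kinases that act in pairs. A ligand binds the outer part of EGFR or ERBB3, the receptor pairs with itself or another family member, and the phosphorylated tails recruit adaptors that start the ERK and PI3K cascades; ERBB2 binds no ligand of its own and ERBB3 has little kinase activity of its own. The ligands are made as membrane precursors and are released by proteases of the ADAM family. In stratified squamous epithelium the pathway drives keratinocyte growth, migration and wound closure, and EGFR is commonly abundant in oral squamous carcinoma.

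Libraries held between 30656278 and 40583044 counted fragments. Levels are given as CPM, the counts relative to library size after scaling with TMM factors, and differences were tested with edgeR's quasi-likelihood test over 18676 genes at a Benjamini-Hochberg adjusted p below 0.05. Stiff replicate 2 stood apart from the other stiff libraries on the second principal component (35 against -21.5 and -18.3; 10.8% of the variance). All 8 squamous epithelial markers were detected, and their summed level was between 5846 and 6508 CPM in soft and between 18859 and 20253 CPM in stiff (6 higher, 2 lower). Summed levels of 7 fibroblast markers were between 72.9 and 80.4 CPM in soft and between 99.3 and 106 CPM in stiff, most of it COL1A1. The 2 higher were COL1A1 (71.8 to 82.6 CPM) and LUM (2.31 to 17.3 CPM, 7.55-fold), and 0 were lower. DCN, below the count filter, had 2 fragments over the soft and 21 over the stiff libraries. Summed levels of 6 leukocyte markers were between 103 and 111 CPM and between 130 and 144 CPM (1 higher, 1 lower), nearly all CD68 and CD14, while PTPRC had 1 and 4 fragments over the libraries of each group and MS4A1 had 0. Summed levels of 5 endothelial markers were between 1.86 and 2.26 CPM and between 3.45 and 4.21 CPM (1 higher, 0 lower). The part of these markers in the results on the family was not tested.

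Of the 10 members, 4 were higher in stiff Matrigel (EGFR, TGFA, AREG and NRG1), 4 were lower (ERBB3, HBEGF, EREG and BTC), ERBB2 did not pass and EPGN lay below the count filter. The largest differences were those of BTC (2.62-fold lower) and HBEGF (1.69-fold lower), and no member rose more than 1.45-fold. Over all tested genes 49.1% were called in either direction, 25.3% higher and 23.8% lower. For 9 members the soft libraries were separate from the stiff ones, against 59.9% of all tested genes. The median log2 fold change was -0.10 over the 9 tested members and 0 over all tested genes, and the median of its absolute size was 0.47 and 0.35. Without stiff replicate 2 the same counts, 4 higher and 4 lower, were found. Without soft replicate 1, and likewise without soft replicate 2, 3 were higher and 2 were lower.

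**Figure D1:**
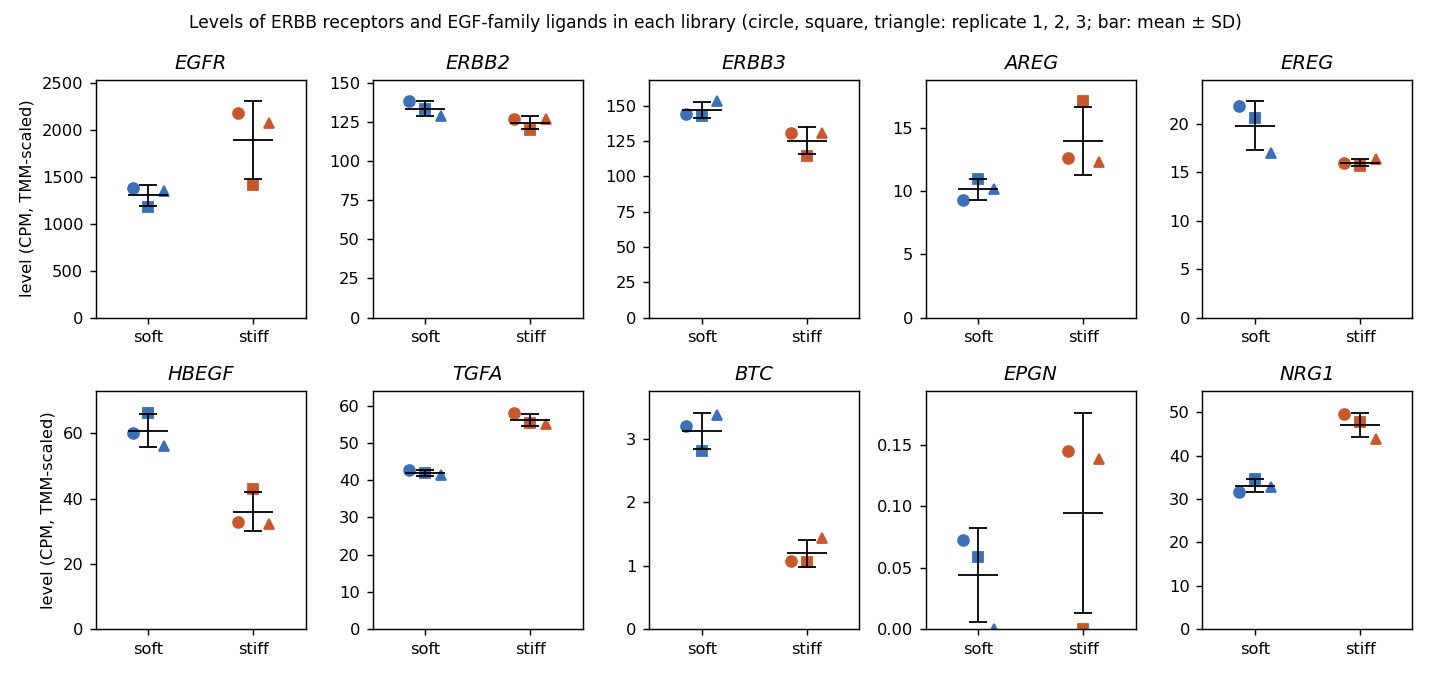
Levels in CPM (vertical axes, each from 0) of the 10 members in the 3 soft and 3 stiff libraries, with mean and SD. TGFA, NRG1, HBEGF and BTC separate the groups widely, whereas EGFR in stiff replicate 2 (1420.25 CPM) lies close to the highest soft library (1384 CPM).

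EGFR (Entrez 1956, chromosome 7, 55019017 to 55211628), the receptor of EGF, TGFA, AREG and several other ligands, was the most abundant member. Its level was 1384, 1177 and 1352 CPM in soft replicates 1 to 3 and 2183, 1420.25 and 2081 CPM in stiff replicates 1 to 3. The soft values lay close together, and stiff replicate 2 was only slightly above them while the other stiff libraries were far higher. The means were 1305 ± 111 and 1895 ± 414 CPM (SD, n = 3), a 1.45-fold rise (95% interval 1.17 to 1.81, adjusted p = 0.0104). Without stiff replicate 2 the rise was 1.64-fold (adjusted p = 2.74e-08), and without soft replicate 2, the lowest soft library, it was 1.38-fold and did not pass (adjusted p = 0.0505). On the log2(TPM + 1) scale limma did not call it either (adjusted p = 0.168), with a range of 1.92e-08 to 0.257 over all alternatives. EGFR-AS1, an antisense RNA that covers 1.49% of the exons of EGFR, was at 25.5, 18.5 and 24.5 CPM in soft and 50.9, 13.2 and 44.2 CPM in stiff (adjusted p = 0.171), and it too was lowest in stiff replicate 2 among the stiff libraries.

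ERBB2 (Entrez 2064, chromosome 17, 39688094 to 39728658), the ligand-less partner of the other receptors, was at 138, 134 and 129 CPM in soft and at 127, 119.8 and 127 CPM in stiff. Every stiff value was below every soft value, but by a small margin. The log2 difference was -0.10 with a 95% interval of -0.24 to 0.05 (adjusted p = 0.229), so a fall of more than 0.24 lies outside the interval. Its exons overlap those of MIEN1 (5.53%) and PGAP3 (1.88%) on the opposite strand. Once the trend on gene length was removed from each library, the difference was 0.04 (adjusted p = 0.578).

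ERBB3 (Entrez 2065, chromosome 12, 56080108 to 56103505), a receptor of neuregulins, was at 145, 143 and 153 CPM in soft and at 131, 114 and 131 CPM in stiff. All stiff libraries were lower than all soft libraries. The means were 147 ± 5.68 and 125 ± 9.59 CPM (SD, n = 3), a 1.17-fold fall (adjusted p = 0.0285). The call was lost without soft replicate 1, 2 or 3 (adjusted p = 0.0685, 0.0532 and 0.102) and after the length correction (adjusted p = 0.116), with a range of 0.00885 to 0.116 over all alternatives.

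Of the ligand genes, EPGN, EREG, AREG and BTC lie within 486054 bases of chromosome 4, in that order, with 1 other gene in the RefSeq table between them, a long non-coding RNA gene with 0 fragments. HBEGF, TGFA and NRG1 lie on chromosomes 5, 2 and 8. The neighbours EREG and AREG, 56387 bases apart, differed in opposite directions, and HBEGF and TGFA were, per length, the most abundant ligands among those that fell and those that rose. For that reason the 250 bases before the start site of these 4 genes are shown, from RefSeq's GRCh38.p14 annotation and written along the strand of the gene. They are AREG (chr4:74444886-74445135, plus strand), EREG (chr4:74364895-74365144, plus strand), HBEGF (chr5:140346604-140346853, minus strand) and TGFA (chr2:70553827-70554076, minus strand, the first of its 2 listed starts). Capitals mark the cAMP response element TGACGTCA and the TATA motif TATAAA in AREG and EREG, and the GC box GGGCGG or its reverse complement CCGCCC in HBEGF and TGFA; a GC box of AREG, from base -9, and the TEAD motif of EREG are left in lower case.
AREG: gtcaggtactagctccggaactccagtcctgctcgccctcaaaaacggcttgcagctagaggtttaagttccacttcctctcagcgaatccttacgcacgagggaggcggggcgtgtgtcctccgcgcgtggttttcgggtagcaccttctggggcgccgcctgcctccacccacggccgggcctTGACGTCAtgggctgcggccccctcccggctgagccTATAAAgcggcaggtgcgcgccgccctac
EREG: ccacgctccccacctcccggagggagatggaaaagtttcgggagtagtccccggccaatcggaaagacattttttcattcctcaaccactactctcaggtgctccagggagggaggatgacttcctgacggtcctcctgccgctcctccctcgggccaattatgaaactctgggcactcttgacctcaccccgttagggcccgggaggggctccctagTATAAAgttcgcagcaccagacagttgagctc
HBEGF: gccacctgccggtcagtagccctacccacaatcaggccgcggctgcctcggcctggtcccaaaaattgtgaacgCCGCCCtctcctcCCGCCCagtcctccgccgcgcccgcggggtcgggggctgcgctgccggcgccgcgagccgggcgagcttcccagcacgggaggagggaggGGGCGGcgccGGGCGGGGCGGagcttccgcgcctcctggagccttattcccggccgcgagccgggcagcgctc
TGFA: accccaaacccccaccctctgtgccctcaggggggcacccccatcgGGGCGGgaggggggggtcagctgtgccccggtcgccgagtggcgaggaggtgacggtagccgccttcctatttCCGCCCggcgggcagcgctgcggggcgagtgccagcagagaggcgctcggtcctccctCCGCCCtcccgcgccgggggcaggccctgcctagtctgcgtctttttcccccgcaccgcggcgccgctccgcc

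Both strands were searched. AREG held the cAMP response element, a site bound by CREB-family factors, from base -65 and the TATA motif from base -29, counted back from the start site. EREG held the TATA motif from base -32 and EPGN from base -29, so these 3 neighbours share a TATA motif at nearly the same distance. Only exact matches were searched for, and the 250 bases before BTC held none. Near its end the BTC window holds gataaa, which differs from the TATA motif in its first letter, so BTC is not set apart by this search. The TATA motif or its reverse complement TTTATA was present in 10.7% of 35116 such windows in the RefSeq table, and the cAMP response element in 1.65%. HBEGF held 5 GC boxes, of which the last 2 share a base. The first start of TGFA held 3 and its second held 0. The first start of EGFR held 2, and 42.6% of all windows held at least 1. The TEAD motif GGAATG or its reverse complement CATTCC, present in 11.9% of windows, was found in EREG from base -175 and at the second listed start of EGFR. The AP-1 motif TGACTCA or its reverse complement TGAGTCA was present in 4.2% of windows. Among the members searched, it was found only at the second listed start of EGFR. That window held 2 AP-1 motifs and also 2 TATA motifs. Windows were searched for 8 of the 10 members. ERBB3 had none here, and chromosome 8, where NRG1 lies, was left out of the search of members. GC content was 76.4% for HBEGF, 75.6% for the first start of TGFA and 64% for its second. It was 65.2% for AREG and 58% for EREG, and the median over all windows was 58%.

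TGFA (Entrez 7039, chromosome 2, 70447284 to 70553826) encodes transforming growth factor alpha, a ligand of EGFR that keratinocytes make for themselves. It was at 42.8, 42 and 41.3 CPM in soft and at 58.2, 55.4 and 55.2 CPM in stiff. The libraries of each group lay close together, far closer than the groups lay to each other. The rise was 1.34-fold (42.1 ± 0.763 to 56.3 ± 1.67 CPM, SD, n = 3, adjusted p = 0.000601). The call was kept under every alternative tried at the threshold of 0.05 (log2 fold change 0.28 to 0.43).

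NRG1 (Entrez 3084, chromosome 8, 31639245 to 32774046) encodes neuregulin 1, a ligand of ERBB3 and ERBB4 rather than of EGFR. Its level was 31.6, 34.6 and 32.8 CPM in soft and 49.5, 47.7 and 43.9 CPM in stiff, again without overlap. The rise was 1.42-fold (33 ± 1.53 to 47 ± 2.85 CPM, SD, n = 3, adjusted p = 0.000451). Of the alternatives at 0.05, the unfiltered log2(TPM + 1) fit with limma alone did not call it (adjusted p = 0.13, from 5.46e-07 to 0.13 over all alternatives), where the deposited TPM of NRG1, 0.5 in every soft library and 0.7, 0.6 and 0.6 in stiff, is small beside the added 1; the filtered TPM settings left it out. The direction of its receptor ERBB3 was the opposite one.

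AREG (Entrez 374, chromosome 4, 74445136 to 74455005) encodes amphiregulin, a ligand of EGFR that binds it with lower affinity than EGF. Its level was 9.27, 11 and 10.1 CPM in soft and 12.6, 17.1 and 12.3 CPM in stiff. Stiff replicate 2 was the highest of the stiff libraries, whereas for EGFR it was the lowest of them. The means were 10.1 ± 0.863 and 14 ± 2.69 CPM (SD, n = 3), a 1.38-fold rise (adjusted p = 0.0186), and without stiff replicate 2 the rise was 1.23-fold (adjusted p = 0.017). The call was lost without soft replicate 1 (adjusted p = 0.0836) and without soft replicate 3 (adjusted p = 0.0598), with a range of 0.00161 to 0.0836 over all alternatives.

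HBEGF (Entrez 1839, chromosome 5, 140332843 to 140346603) encodes heparin-binding EGF-like growth factor, a ligand of EGFR and ERBB4 that is released at wound edges. Its level was 60.1, 66.3 and 56.1 CPM in soft and 32.8, 42.8 and 32.3 CPM in stiff. Every stiff library was lower than every soft library, and stiff replicate 2 was the nearest to soft. The means were 60.8 ± 5.14 and 35.9 ± 5.94 CPM (SD, n = 3), a 1.69-fold fall (95% interval 1.42 to 2.02, adjusted p = 0.000439). The call was kept under every alternative at the threshold of 0.05, with a fold between 1.61 and 1.87, and was 1.87-fold without stiff replicate 2.

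BTC (Entrez 685, chromosome 4, 74744759 to 74794523) encodes betacellulin, another ligand of EGFR and ERBB4. It had 133, 96 and 105 fragments in soft and 37, 38 and 52 in stiff, that is 3.2, 2.81 and 3.38 CPM against 1.07, 1.07 and 1.44 CPM. It was the member with the largest relative difference, a 2.62-fold fall (95% interval 1.93 to 3.54, adjusted p = 0.000274), at a level far below those of HBEGF and TGFA. The call was kept under every alternative at the threshold of 0.05, with a log2 fold change between -1.54 and -0.79 (1.73-fold). The smallest value came from limma on the log2(TPM + 1) scale, which understates the change of low genes, and there the HBEGF log2 fold change (-0.87) was larger than the BTC log2 fold change.

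EREG (Entrez 2069, chromosome 4, 74365145 to 74388749) encodes epiregulin, a low-affinity ligand of EGFR. It was at 21.8, 20.7 and 17 CPM in soft and at 16, 15.6 and 16.4 CPM in stiff. Soft replicate 3 lay nearly at the stiff level. The fall was 1.24-fold (19.8 ± 2.5 to 16 ± 0.358 CPM, SD, n = 3, adjusted p = 0.0295). It was lost without soft replicate 1 or 2 (adjusted p = 0.137 and 0.0972) and without stiff replicate 1 or 3 (adjusted p = 0.0663 and 0.0574), with a range of 0.00936 to 0.137 over all alternatives.

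EPGN (Entrez 255324, chromosome 4, 74308470 to 74316789) encodes epigen, the remaining ligand of EGFR in the set. It had 3, 2 and 0 fragments in soft and 5, 0 and 5 in stiff. It was not tested, and at this depth no difference was detectable.

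**Figure D2:**
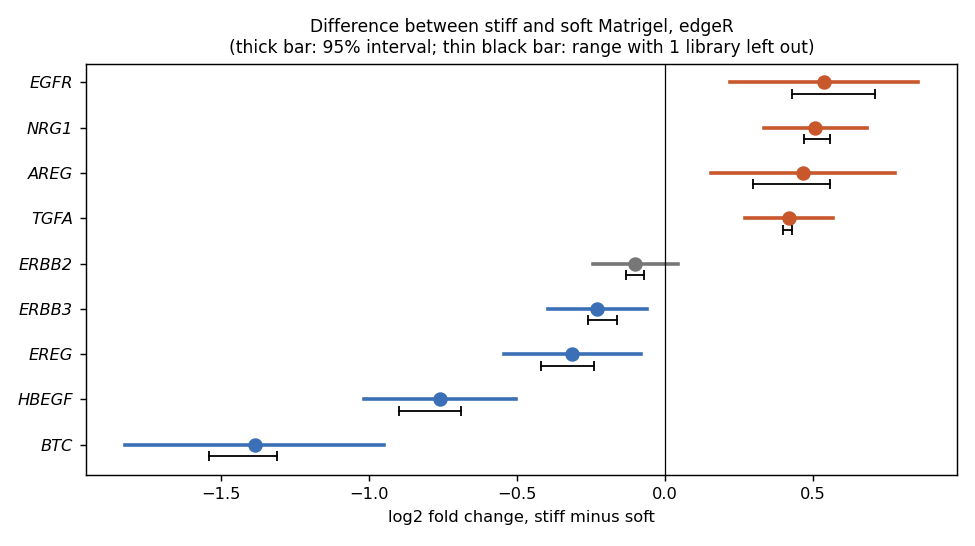
Log2 fold change (horizontal axis, stiff minus soft) of the 9 tested members with its 95% interval, and the range when each library was left out in turn. BTC (-1.39) and HBEGF (-0.76) lie farthest below 0, and EGFR has the widest range among the members that rose, 0.43 to 0.71.

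To compare levels between genes, CPM was divided by the length in kilobases of the longest GENCODE 29 transcript of each gene. On this scale EGFR was at 133 ± 11.3 in soft and 193 ± 42.2 in stiff (CPM per kb, mean ± SD, n = 3), above every other member. ERBB2 (27.1 ± 0.979), HBEGF (25.5 ± 2.15) and ERBB3 (24.8 ± 0.96) followed in soft. The range of HBEGF overlapped those of both receptors, while ERBB2 lay just above ERBB3. TGFA (9.76 ± 0.177), AREG (8.17 ± 0.696), NRG1 (5.57 ± 0.258), EREG (4.3 ± 0.541) and BTC (1.11 ± 0.102) came next, each below the range of the one before. In stiff, HBEGF (15.1 ± 2.49) lay below ERBB2 (25.3 ± 0.847) and ERBB3 (21.2 ± 1.62), and its lowest library (13.52) lay just above the highest of TGFA (13.1 ± 0.387, highest 13.5). AREG (11.3 ± 2.17) overlapped both of these ligands. With exon union lengths instead, ERBB2 (12.9 in soft) dropped below HBEGF (20.2) and ERBB3 (16.2), so the order among these depended on the length used.

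The deposited TPM gave another order, in which HBEGF (mean 109.9 TPM in soft) and ERBB3 (94.1) stood beside EGFR (105.3) and ERBB2 was at 3.8 TPM, although ERBB2 and ERBB3 had nearly equal counts (14304 and 15636 over the soft libraries). The length that counts and TPM imply rose with the number of transcripts RefSeq lists for a gene: relative to genes with 1 transcript it was 1.92 times longer, per base of real transcript, for genes with 2 and 8.36 times for genes with 10. ERBB2 has 32 listed transcripts and NRG1 28, ERBB3 has 4, and HBEGF, AREG and EREG have 1. TPM were therefore not used to compare levels between genes; within a gene this length is fixed and cancels.

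**Figure D3:**
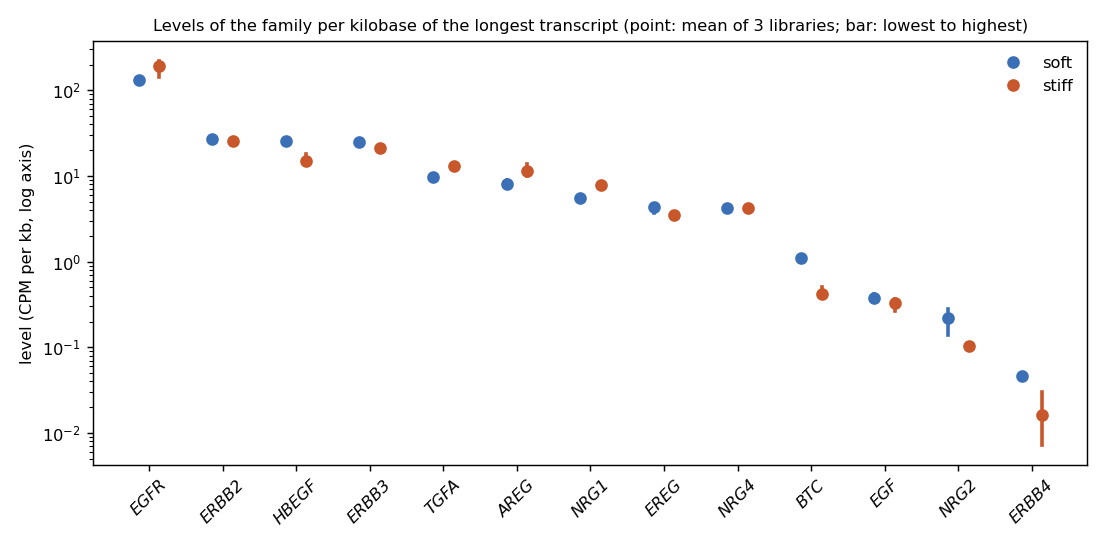
Level in CPM per kb of the longest transcript (vertical log axis) of the 9 tested members and of NRG4, EGF, NRG2 and ERBB4, in soft and stiff (mean of 3 libraries, bar from the lowest to the highest). EGFR is the highest (133 in soft), and EGF, NRG2 and ERBB4 lie below every tested member in soft.

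Within the receptors, the share of EGFR in the summed level per kilobase was 72.9%, 70.1% and 72.6% in soft and 82.3%, 76.8% and 81.6% in stiff. The shares of ERBB2 (14.7% ± 1.05 to 10.8% ± 1.85, SD, n = 3) and ERBB3 (13.5% ± 0.747 to 8.98% ± 1.12) were correspondingly smaller in stiff. The ratio of EGFR to ERBB3 was 5.36 ± 0.398 in soft and 9.04 ± 1.37 in stiff. The summed receptor level was between 171 and 193 CPM per kb in soft and between 188 and 270.2 in stiff, and these ranges overlapped through stiff replicate 2, the lowest of the stiff libraries.

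Within the ligands, HBEGF held 46.8%, 48.1% and 45.5% of the summed level in soft and 27.6%, 31.8% and 28.3% in stiff. TGFA went from 18% ± 0.943 to 25.6% ± 2.43, AREG from 15% ± 1 to 21.9% ± 2.24 and NRG1 from 10.2% ± 0.419 to 15.5% ± 1.26 (SD, n = 3), without overlap. The ratio of HBEGF to AREG was 3.37, 3.14 and 2.88 in soft and 1.35, 1.3 and 1.37 in stiff, so it was nearly equal in the stiff libraries although stiff replicate 2 had more of both. The summed ligand level was 54.4 ± 3.08 and 51.3 ± 4.5 CPM per kb (SD, n = 3), with overlapping ranges. The ligand sum and shares cover the 7 member ligands only. They leave out NRG4, at 4.24 ± 0.164 CPM per kb in soft and 4.27 ± 0.159 in stiff. These sums and shares are descriptions, since the members were chosen with results of these data known.

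**Figure D4:**
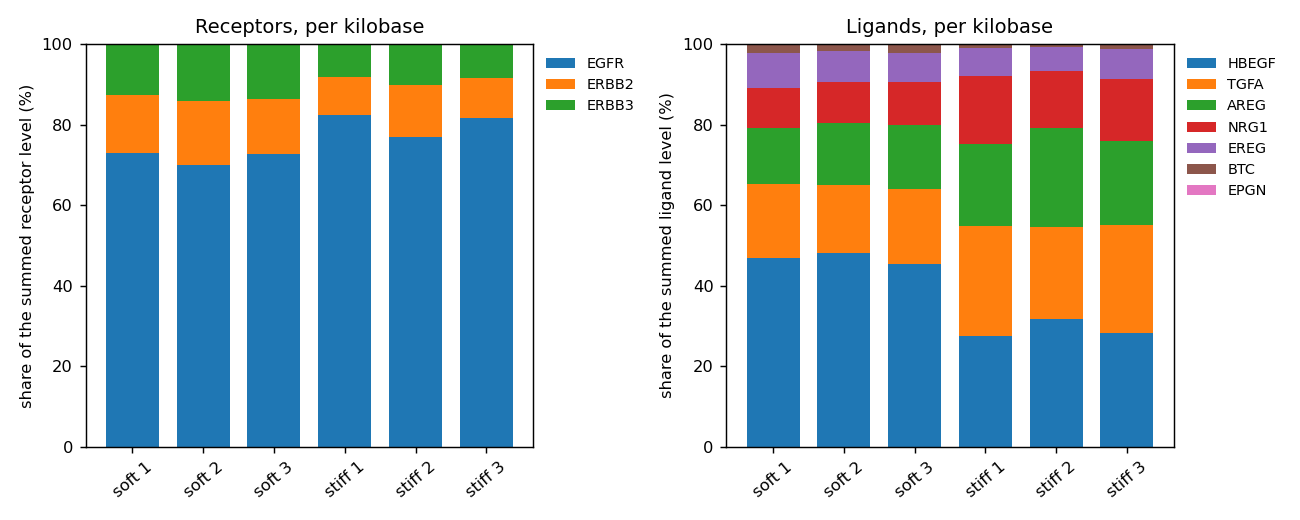
Share in percent (vertical axes, 0 to 100) of each member receptor and each member ligand in their summed level per kilobase in each library. The part of HBEGF shrinks from 46.8% to 29.2% on average, while the parts of TGFA, AREG and NRG1 grow.

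The other genes of the family were low or did not pass. ERBB4, the remaining receptor, had 25, 18 and 17 fragments in soft and 3, 5 and 13 in stiff (2.81-fold lower, adjusted p = 0.0223). NRG2 had 43, 31 and 16 fragments in soft and 12, 15 and 14 in stiff (2.14-fold lower, adjusted p = 0.0229). Both calls were lost without soft replicate 1 (adjusted p = 0.0762 and 0.113), soft replicate 2 (0.0504 and 0.0724) and stiff replicate 1 (0.0742 and 0.0667); that of ERBB4 was also lost without soft replicate 3 (0.0541), and that of NRG2 without stiff replicate 3 (0.0577). Without stiff replicate 3, which had 13 of the 21 stiff fragments, ERBB4 was 4.79-fold lower (adjusted p = 0.00509). With limma on unfiltered log2(TPM + 1) the NRG2 log2 fold change was -0.14 and passed (adjusted p = 0.0144). With DESeq2 the NRG2 log2 fold change was -1.10 and did not pass (adjusted p = 0.0565). EGF itself did not pass (1.83 ± 0.182 in soft, 1.61 ± 0.278 CPM in stiff, SD, n = 3, adjusted p = 0.502). NRG4 did not pass either (14.4 ± 0.559 in soft, 14.6 ± 0.54 CPM in stiff, adjusted p = 0.929), with a 95% interval of -0.18 to 0.20 for the log2 difference. NRG3 had 3 fragments in soft and 0 in stiff.

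Ligand shedding releases the membrane precursors. Of 10 genes of this step, 2 were higher, 4 were lower and 4 did not pass (60% called, against 49.1% of all tested genes). ADAM17, the main sheddase of TGFA, AREG, EREG and HBEGF, was at 139 and 149 CPM (adjusted p = 0.265; named after its values were seen). ADAM10, the main sheddase of BTC and EGF, fell 1.33-fold from 287 to 215 CPM (adjusted p = 0.00192), ADAM12 fell 2.85-fold from 31.5 to 11 CPM, and TIMP3, an inhibitor of ADAM17, fell 1.53-fold. Of the inactive rhomboids that guide ADAM17, RHBDF1 rose 1.3-fold and RHBDF2 fell 1.28-fold. The rhomboid protease RHBDL2 rose 1.22-fold, a call lost without soft replicate 1, 2 or 3 (adjusted p = 0.0711, 0.0735 and 0.0584); that of RHBDF2 was lost without soft replicate 3 (adjusted p = 0.0501). Limma on unfiltered log2(TPM + 1) called neither RHBDF1 (adjusted p = 0.0554) nor RHBDF2 (adjusted p = 0.058), and RHBDL2 passed in none of the limma fits. The count of higher genes was 1 without soft replicate 1, 2 or 3 and 4 without stiff replicate 2.

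Receptor adaptors and proximal effectors carry the signal from the phosphorylated tails. Of 23 genes, 9 were higher, 4 were lower and 10 did not pass (56.5% called, against 49.1% of all tested genes). The median difference on the log2 scale was 0.02. GRB7, an adaptor of ERBB2, rose 1.56-fold from 72.6 to 113 CPM, and the exchange factors VAV2 and VAV3 rose 1.48-fold and 1.53-fold. EPS8, a substrate of EGFR that links it to actin, fell 2.32-fold from 73.9 to 31.9 CPM. The PI3K regulatory subunits PIK3R1 and PIK3R2 fell 1.7-fold and 1.3-fold, and the phosphatase PTPN11, which relays receptor signals to RAS, fell 1.4-fold. The remaining called genes, all higher, were named after their values were seen. They were TNS4 (1.44-fold), GAB1 (1.37-fold), PLCG1 (1.36-fold), HRAS (1.34-fold), NRAS (1.29-fold) and NCK2 (1.16-fold). The count of higher genes was 6 without soft replicate 2 or 3 and 5 at the threshold of 0.01. In the limma fits it was 4 or 5.

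Inhibitors, ubiquitin ligases and phosphatases act on receptors, and many of them, though not all in this list, lower receptor signalling. Of 24 genes, 6 were higher, 8 were lower and 10 did not pass (58.3% called, against 49.1% of all tested genes). ERRFI1, which binds and blocks the kinase domain of EGFR and is itself induced by EGFR signalling, was at 38.7, 39.8 and 36.4 CPM in soft and at 85.1, 95.4 and 77.2 CPM in stiff. Its stiff values were at least 77.2 CPM and its soft values at most 39.8 CPM, a 2.24-fold rise (adjusted p = 4.77e-06). SOCS2, a suppressor of cytokine signalling, rose 3.18-fold from 3.71 to 11.8 CPM and the ubiquitin ligase CBLC rose 1.5-fold. UBASH3B, a phosphatase that acts on receptors bound by CBL, fell 2.18-fold from 8.09 to 3.71 CPM. With limma on unfiltered log2(TPM + 1) the log2 fold changes were 0.70 for SOCS2 (1.62-fold) and -0.51 for UBASH3B (1.42-fold), and both passed. Without soft replicate 1, 5 genes were lower rather than 8.

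Endocytosis removes and returns receptors. Of 22 genes, 8 were higher, 5 were lower and 9 did not pass (59.1% called, against 49.1% of all tested genes). CAV1, the caveolar coat protein, rose 1.79-fold from 583 to 1044 CPM, ANXA2 rose 1.31-fold and the clathrin adaptor EPN2 rose 1.37-fold. Those lower were CLTC, the clathrin heavy chain (1.35-fold), STAM2 (1.32-fold), RAB11FIP1 (1.33-fold), EHD1 (1.19-fold) and SNX1 (1.14-fold). The call of SNX1 was lost without soft replicate 1, 2 or 3 and without stiff replicate 1 (adjusted p = 0.118, 0.0796, 0.128 and 0.0902). Both length-corrected fits, all limma fits and the fit to all genes with a count also left SNX1 uncalled (adjusted p up to 0.387). EPN2 passed in none of the 3 limma fits (adjusted p up to 0.149), and CLTC (0.0549) and RAB11FIP1 (0.0741) did not pass in the unfiltered one. Leaving out soft replicate 1, or soft replicate 2, took the count of higher genes to 5.

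Genes that ERK induces are a usual readout of the pathway. Of 18, 5 were higher, 6 were lower and 7 did not pass (61.1% called, against 49.1% of all tested genes). DUSP6, a phosphatase of ERK, was at 9.8, 12.5 and 10.8 CPM in soft and at 22.3, 27.8 and 20.6 CPM in stiff (2.14-fold higher), whereas DUSP4, another such phosphatase, fell from 15.7, 17.8 and 16 CPM to 5.02, 4.99 and 4.49 CPM (3.41-fold lower). DUSP1 rose 1.66-fold, the early response gene IER3 1.51-fold, the AP-1 subunit FOSL1 1.37-fold and the feedback inhibitor SPRY4 3.13-fold at no more than 1.63 CPM. The call of FOSL1 was lost without soft replicate 1 (adjusted p = 0.0673) and soft replicate 3 (adjusted p = 0.0729) and in all 3 limma fits (adjusted p up to 0.0895). SPRY4 was at 0.13 on the log2 scale (1.09-fold) and did not pass (adjusted p = 0.185) with limma on unfiltered log2(TPM + 1), where its low level is small beside the added 1. The cyclin CCND1 fell 1.69-fold from 263 to 156 CPM and PHLDA1 fell 1.33-fold. The others lower, named after their values were seen, were ETV5 (1.83-fold), ETV4 (1.33-fold) and MYC (1.21-fold). Their adjusted p was 0.00194, 0.0212 and 0.0181. The immediate-early genes EGR1 and FOS, named after their values were seen, were at 199 and 199 CPM and at 115 and 112 CPM (adjusted p = 0.999 and 0.793).

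Partners and co-receptors share the membrane with the family. Of 16 genes, 7 were higher, 6 were lower and 3 did not pass (81.25% called, against 49.1% of all tested genes). The heparan sulfate proteoglycans GPC1 and SDC4 rose 2.84-fold (214 to 608 CPM) and 2.09-fold (238 to 497 CPM). CD9, a tetraspanin that binds the HBEGF precursor, rose 2.3-fold from 224 to 514 CPM, the opposite direction to HBEGF. CD44, a carrier of HBEGF named after its values were seen, rose 2.3-fold from 996 to 2288 CPM. MUC4, a membrane mucin known as a partner of ERBB2, was at 1466, 1164 and 1328 CPM in soft and at 107, 61.6 and 143 CPM in stiff (12.7-fold lower). Also called lower, and named after their values were seen, were HSP90AA1 (mean 919 to 616 CPM), CDH1 (320 to 235 CPM) and MET (372 to 277 CPM). MUC1 (320 to 247 CPM) and ERBIN (117 to 94.1 CPM) complete the lower genes of this list. Over the 7 lists together 37 of 117 tested genes were higher and 35 lower, or 61.5% called against 49.1% of all tested genes. The median log2 fold change was -0.01. The lists were chosen with earlier results of these data known, so their counts and shares are descriptions. The part of that choice, and of the level of the listed genes, in the larger share was not tested.

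**Figure D5:**
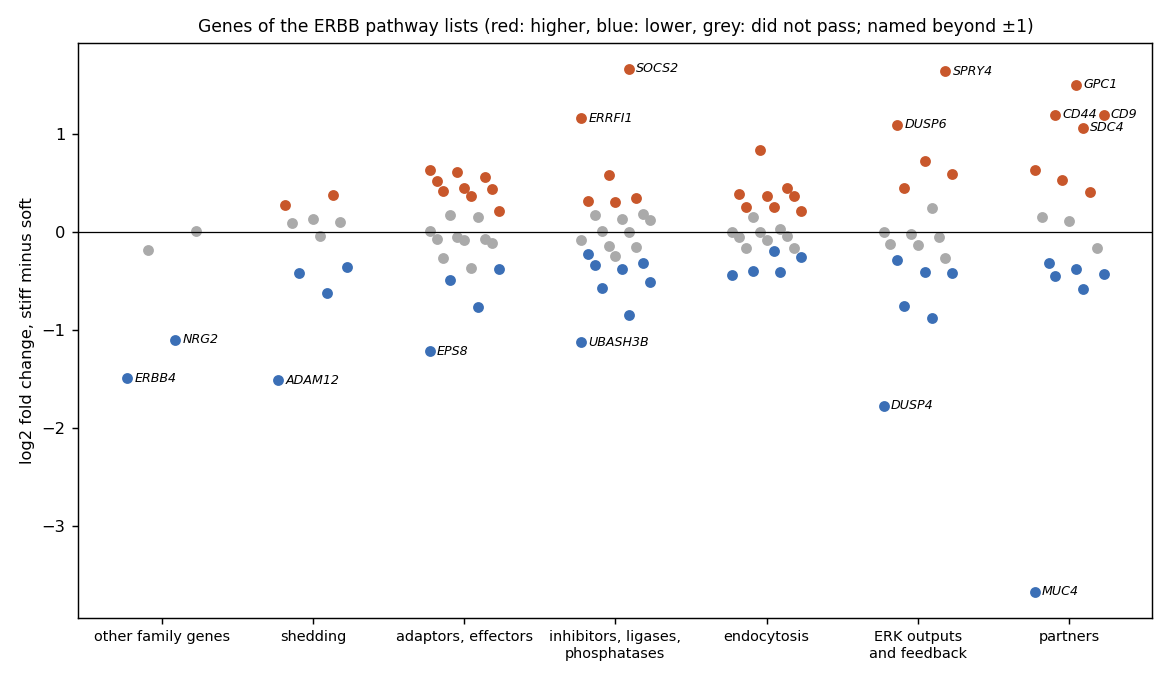
Log2 fold change (vertical axis, stiff minus soft) of every tested gene of the 7 pathway lists, 1 point per gene. Of the other family genes the 2 called are both lower, the other 6 lists hold called genes on both sides of 0, and MUC4 (-3.67) lies farthest from 0.

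Over the 11897 genes averaging 5 CPM or more, those with the pattern most like EGFR over the 6 libraries were SH3PXD2A (distance 0.0658 between centred log2 CPM values), KDM6B (0.0711) and PTPRF (0.0777). All 3 were low in stiff replicate 2 as EGFR was; PTPRF was at 1388, 890.2 and 1324 CPM in stiff. Those most like HBEGF were LOC107986126 (distance 0.106), QTRT1 (0.108) and BBLN (0.123), with stiff replicate 2 the nearest to soft in each. The genes were picked by distance over these same libraries, so the shared place of stiff replicate 2 follows from the choice. These are descriptions over 6 libraries in 2 groups. Among the members, TGFA and NRG1 were the closest pair (distance 0.182).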

How the data were processed

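Polyadenylated RNA of 3 soft and 3 stiff Cal27 libraries was sequenced. The submitters' processing notes name the build hg38 and the tools featureCounts 1.6.2, STAR 2.6.1e, cutadapt 1.9.1, Trim Galore 0.4.2 and FastQC 0.11.7. How strand and multiply matching reads were handled, and with which annotation, is not known from the sources used. The counts deposited by the authors are whole numbers per gene symbol, not normalized. The TPM deposited by the authors are given to 1 decimal. In 6173 well-covered genes, dividing counts by TPM gave a fixed length times a library factor to within 5% for 99.63% of values or more, and that length rose with the number of listed transcripts. Levels between genes, planned on TPM, were therefore given as CPM per kilobase of GENCODE 29 transcripts.

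The comparison, stiff against soft, was fitted with edgeR 4.0.16 in R 4.3.3 (quasi-likelihood test, TMM, default filter, no covariate) on all genes and tested on simulated data. Alternatives used DESeq2 1.42.0, limma 3.58.1 on log2(TPM + 1) and log2(TPM + 0.1), other factors, filters and dispersion, a gene-length correction (lowess, span 0.3; 88.5% of tested genes had a length), the replicate number as a block, a threshold of 0.01 and each library left out. The members and gene lists were chosen with earlier results of these data known. Named were all members and, per list, up to 4 called genes with the smallest p and all called in a direction with 5 or fewer, and the 3 genes (mean of 5 CPM or more) closest in pattern to the most abundant receptor and ligand; other names were chosen after their values were seen. Within groups, libraries differed beyond sampling noise (chi-square over its degrees of freedom, 3.26 to 30.75). Gene positions and promoters come from RefSeq, to which 35508 of 38167 symbols matched.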

Additional observations from a re-analysis of the deposited data

How the results depend on the processing

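HBEGF, TGFA and BTC kept direction and call in every alternative tried at the threshold of 0.05. At a threshold of 0.01, 2 members were higher and 2 lower, and EGFR (log2 fold change 0.54), ERBB3 (-0.23), AREG (0.47) and EREG (-0.31) were not called. With limma on log2(TPM + 1) and on log2(TPM + 0.1), both restricted to a mean of 1 TPM or more, and on log2(TPM + 1) without a filter, genes higher in stiff numbered 2880, 2831 and 3138 (4722 with edgeR), members higher 2, 2 and 1, and pathway genes higher 21, 20 and 20 (37 with edgeR), and EGFR was 0.40 and not called in all 3. Without the filter 2 members were lower, and ERBB3 (-0.34), AREG (0.33), EREG (-0.39) and NRG1 (0.12) were not called. Higher genes made up 41.2%, 41.5% and 42.3% of calls there and 44.7% with library size only, against 51.5%, and the median of all genes moved by -0.114 with log2(TPM + 0.1). The gene-length correction, with and without the replicate block, turned ERBB2 to 0.04 and took ERBB3 to -0.11, not called. The cause of these changes was not tested. With each library left out, members higher ranged from 3 to 4 and lower from 2 to 4, pathway genes higher from 30 to 46 and lower from 27 to 39, EGFR from 0.43 to 0.71, ERBB3 from -0.26 to -0.16, AREG from 0.30 to 0.56 and EREG from -0.42 to -0.24. Same-numbered libraries had correlations of deviations of 0.07, 0.22 and 0.05, and differently numbered ones between -0.16 and 0.09. The labels do not say that the numbers mark pairs, so the main fit did not pair them. Whether same-numbered libraries share a source was not tested. With the replicate number as a block, genes higher in stiff numbered 5167 (4722 without it) and genes lower in stiff 5039 (4449 without it). In that fit EGFR was 0.52, 4 members were higher and 4 lower, and no member's call changed.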
